A study of Caenorhabditis elegans with 6 samples.

Results

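The FMRFamide-like peptide genes, named flp in Caenorhabditis elegans, were followed in whole adult worms fed 1 of 2 strains of Escherichia coli. The members were chosen by gene symbol alone, as every gene in both deposited tables whose symbol starts with flp-, and no measured value entered that rule. This gave 31 genes of 18811. The family was put forward with results of the same diet comparison known, so its diet values are given as a description and are not independent evidence of a diet effect.

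Each flp gene encodes a precursor protein that is cut in the secretory pathway into 1 or several short peptides, most of them ending in an amidated arginine and phenylalanine. The peptides are packed into dense core vesicles, are released mainly from neurons, and act on G protein-coupled receptors of other neurons, muscle, gut or gonad. In C. elegans they are known for roles in locomotion, sleep, egg laying, feeding, fat storage and mating.

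The worms were Caenorhabditis elegans, with no strain or mutation named in the labels, grown at 20 °C and placed at larval stage 4 on plates of either bacterium. BW25113 is a laboratory strain of Escherichia coli. The other bacterium is described only as a mutant strain called purE, which is also the name of a bacterial gene of purine synthesis. Total RNA of synchronised adults was sequenced, with whole bodies as the tissue and no adult age given, in 3 libraries per diet. Nothing in the labels says that replicates were separate worm cultures, so the p-values measure the spread between these libraries, which may be technical.

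Library totals were alike, from 21880627 to 22607939 estimated counts, of which the family held 5352 to 6079 in the BW25113 libraries and 6888, 12857 and 8135 in purE replicates 1, 2 and 3. A count of 3, the limit that a count of 0 allows, corresponded to 0.110 to 0.161 CPM over the libraries (counts scaled to the TMM-adjusted library size) and covers counting error only. The libraries of the purE diet differed among themselves. On principal component 1 of all genes, which held 69.3% of the variance, purE replicates 2 and 3 lay at 120.2 and 50.8, while purE replicate 1 lay at -26.02, near the BW25113 libraries at -39.7 to -59.8. Results that rest on these libraries are therefore also given without them.

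The family spanned a wide range of levels, compared here per length in the deposited FPKM (fragments scaled to gene length and library size). The highest was flp-28, with 89.7, 90.1 and 63.2 FPKM in the BW25113 libraries and 95.6, 162 and 125 FPKM in the purE libraries. It stood first in all 6 libraries, between 1.88 and 2.41 times the next member, and held 15.1% to 20.9% of the family's summed FPKM. The next were flp-11, at a mean of 48.8 FPKM over the 6 libraries, flp-14 at 41.9, flp-1 at 35.99, flp-24 at 32.1, flp-5 at 28.1, flp-12 at 27.9 and flp-15 at 26.9. Below flp-28 the order was loose, since flp-11 stood next in 5 libraries but gave way to flp-14 in BW25113 replicate 3. The 5 highest members of a library together held 39.8% to 47.3% of the family's FPKM. A mean of at least 10 FPKM was found for 20 members, and the median of the 30 tested members was 14.8 FPKM, against 6.27 FPKM over all 12144 genes tested.

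At the low end, flp-34, which acts in olfactory learning, averaged 1.44 FPKM. The gene flp-23 was near the detection floor, with counts of 0, 0 and 1 on BW25113 and 0, 1 and 3 on purE, and it was the 1 member that failed the filter on low counts. Levels of a pair of members depend on the gene length used. For flp-33 the length implied by its deposited counts and FPKM was 3334 bases, against 470 bases of annotated exons, so it ranked 29 by deposited FPKM and 7 by CPM per annotated exon length. Its exons share 8 bases with ntr-1 on the opposite strand, and its counts were not whole numbers, so what its reads stand for is uncertain. Such overlaps with opposite-strand coding genes were also present for flp-11 (tmem-135, 17 bases), flp-16 (romo-1, 14 bases) and flp-19 (abl-1, 5 bases). Counts that were not whole also occurred for flp-34. For flp-12 the implied length was 434 bases against 1013 bases of exons, and its rank was 7 by deposited FPKM and 17 by exon length.

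**Figure D1:**
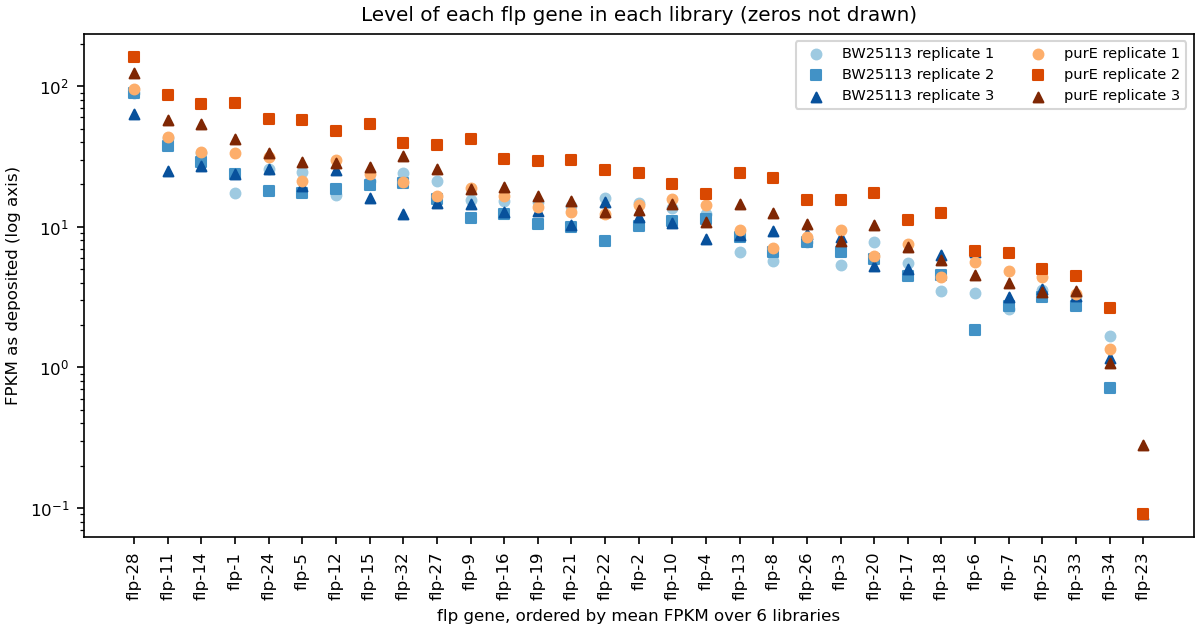
Deposited FPKM on a log axis for the 31 flp genes, ordered by their mean, with 1 point per library (blue for BW25113, orange to brown for purE, zeros not drawn). The points of flp-28 lie between 63.2 and 162 FPKM, above those of every other member in the same library, and the squares of purE replicate 2 top most columns.

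All 30 tested flp genes were higher on the purE diet on average, the median of their log2 fold changes being 0.88 and the range from 0.44 for flp-25 to 1.41 for flp-1. Over all genes tested the median was 0.03 and 51.6% were higher. The purE group did not move as a block. In purE replicate 2 every one of the 30 genes exceeded all BW25113 libraries, at a median of 2.77 times the BW25113 mean, and in purE replicate 3 it was 27 of 30, at 1.72 times. In purE replicate 1 it was 8 of 30, at a median of 1.02 times, and flp-26 lay below all BW25113 libraries. These values are in TMM-scaled CPM, and the place of purE replicate 1 depended on the scaling. In deposited FPKM the family summed to 540.8 there, against 419 to 489.5 on BW25113. By that measure flp-26 was inside the BW25113 range, at 8.46 against 7.83 to 8.87. Over all genes tested 24.7%, 41.8% and 34.6% exceeded all BW25113 libraries in CPM in purE replicates 1, 2 and 3. The 8 members in purE replicate 1 were thus near the share of all genes. In whole worms, more cells of a type and more RNA per cell cannot be told apart.

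No flp gene passed the threshold in the fit across all genes. In edgeR's quasi-likelihood test, 0 of 30 members and 0 of 12144 genes (0%) had a Benjamini-Hochberg adjusted p under 0.05, and the smallest adjusted p among members was 0.141, for flp-1. An unadjusted p under 0.05 was found for 11 members as higher, against 12.7% of all genes as higher, and for 0 members as lower, against 3.81% of all genes. DESeq2 called 1 member, flp-1, as higher, where it called 6.26% of all genes as higher, and limma-voom called 0. It gave 4 members an unadjusted p under 0.05 as higher, against 8.98% of all genes. For 8 members every purE library exceeded every BW25113 library, against 13.1% of all genes, and for 0 members every purE library was lower, against 6.68%. These 8, counted in CPM, were flp-1, flp-3, flp-7, flp-9, flp-12, flp-17, flp-24 and flp-25. In deposited FPKM the groups of flp-3 and flp-25 overlapped, since purE replicate 3 lay below BW25113 replicate 3. By that measure flp-10, flp-11, flp-13, flp-14, flp-15, flp-16, flp-28 and flp-33 also had every purE library above every BW25113 library. The share of all genes was 11.8% in FPKM.

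**Figure D2:**
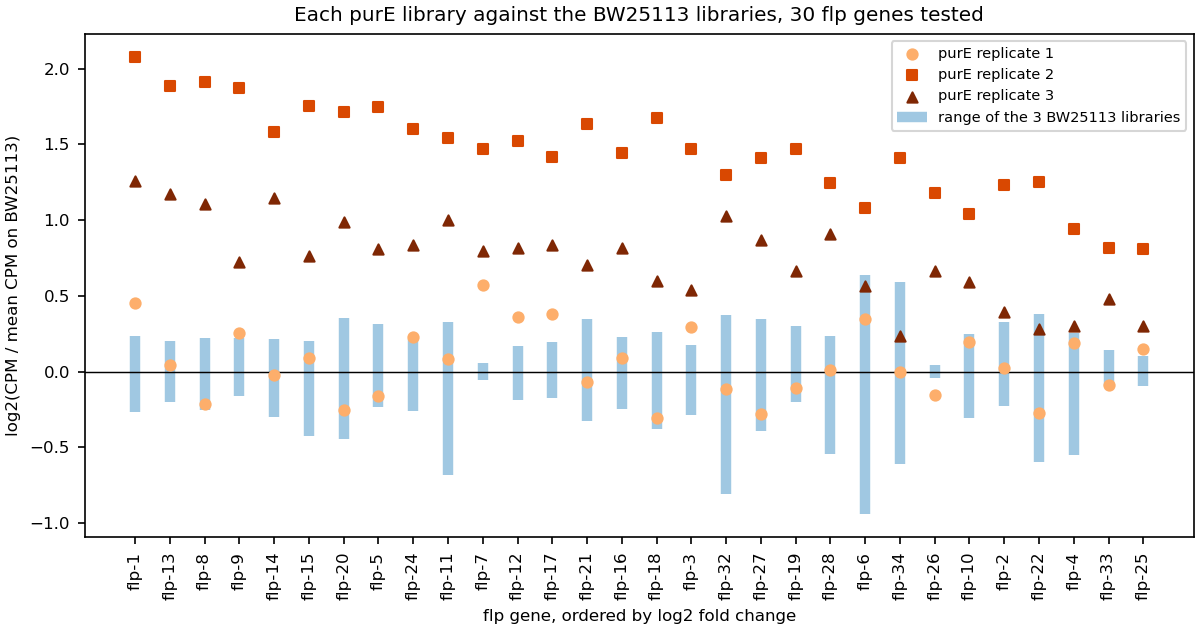
For the 30 flp genes tested, log2 of the ratio of CPM in each purE library to the BW25113 mean, ordered by log2 fold change, with blue bars for the range of the 3 BW25113 libraries. The squares of purE replicate 2 lie above every blue bar, the triangles of purE replicate 3 above 27 of 30, and the circles of purE replicate 1 above 8 of 30.

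The member furthest apart was flp-1, made in interneurons and known for its part in locomotion (WBcel235, chromosome IV, 9144705 to 9146128, forward strand). It stood at 10.7, 15.2 and 12.9 CPM in the BW25113 libraries and at 17.7, 54.7 and 30.97 CPM in the purE libraries. The groups did not overlap, with purE replicate 1 just above the highest BW25113 library and purE replicate 2 far above all others. Its log2 fold change was 1.41 ± 0.41 (SE, 3 libraries per diet), and its adjusted p was 0.141 in edgeR, while DESeq2 gave 0.0329. The value was 0.91 without purE replicate 2 and 1.60 without purE replicate 1, where edgeR's adjusted p was 0.0146. Without any other single library, edgeR's adjusted p was 0.268 to 0.485. With all libraries, limma-voom gave an adjusted p of 0.356. Within the family, flp-1 also took a larger share of the summed CPM on purE, with 6.998%, 8.07% and 7.12% against 3.95%, 6.16% and 6.32% on BW25113. This share does not depend on how libraries were scaled, and it was chosen after the values were seen.

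Among the genes known for roles in sleep, flp-11, released by the sleep-promoting neuron RIS, stood at 26.0, 23.3 and 12.9 CPM on BW25113 and at 21.9, 60.4 and 41.6 CPM on purE. Its groups overlapped in CPM, since purE replicate 1 lay below the highest pair of BW25113 libraries. In deposited FPKM they did not, with 43.6 in purE replicate 1 against at most 42.8 on BW25113. The gene flp-13, which acts from the neuron ALA in sleep after stress, stood at 4.74, 6.27 and 5.38 CPM on BW25113 and at 5.62, 20.2 and 12.3 CPM on purE. It too had purE replicate 1 inside the BW25113 range in CPM, with a log2 fold change of 1.21 ± 0.46. In deposited FPKM that library exceeded all BW25113 libraries, at 9.41 against at most 8.72. A further peptide gene of ALA, flp-24, stood at 12.8, 9.23 and 11.1 CPM on BW25113 and at 12.9, 33.5 and 19.7 CPM on purE. Its purE replicate 1 exceeded BW25113 replicate 1 only narrowly. The log2 fold changes of flp-11 and flp-24 were 0.99 ± 0.42 and 1.00 ± 0.37. The gene flp-2, known for promoting arousal, had a smaller value of 0.64 ± 0.40.

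The genes flp-17 and flp-10 encode ligands of the receptor EGL-6, through which egg laying is inhibited. flp-17, made in the gas-sensing BAG neurons, stood at 3.89, 3.28 and 3.01 CPM on BW25113 and at 4.41, 9.08 and 6.04 CPM on purE. Its groups did not overlap, and its log2 fold change was 0.94 ± 0.38. The value of flp-10 was 0.65 ± 0.32, with groups that overlapped in CPM but not in deposited FPKM. Among genes tied to feeding and fat, flp-7, which acts on the gut to promote fat loss, stood at 1.84, 1.98 and 1.91 CPM on BW25113 and at 2.83, 5.28 and 3.32 CPM on purE. All its purE libraries were clear of the narrow BW25113 range, and it had the highest ratio of purE replicate 1 to the BW25113 mean among the tested members, at 1.48. flp-18 and flp-21, ligands of the feeding-behaviour receptor NPR-1, had log2 fold changes of 0.87 ± 0.51 and 0.92 ± 0.47, both with purE replicate 1 inside the BW25113 range.

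Several members are known from male mating, although whole adults of unstated sex were sampled here. flp-12 stood at 7.34, 8.35 and 9.42 CPM on BW25113 and at 10.7, 24.1 and 14.7 CPM on purE. flp-3 stood at 4.39, 5.63 and 6.03 CPM on BW25113 and at 6.54, 14.8 and 7.76 CPM on purE. In both genes the diets did not overlap in CPM, by a small margin in purE replicate 1. Their log2 fold changes were 0.98 ± 0.35 and 0.86 ± 0.39. In deposited FPKM the diets overlapped for flp-3, at 7.93 in purE replicate 3 against 8.51 in BW25113 replicate 3. The related members flp-8 and flp-20 had 1.17 ± 0.52 and 1.02 ± 0.52, with purE replicate 1 inside the BW25113 range and purE replicates 2 and 3 above it.

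Of the abundant members, flp-28 stood at 44.8, 46.2 and 27.0 CPM on BW25113 and at 39.6, 93.4 and 73.8 CPM on purE. flp-14 stood at 20.6, 18.3 and 14.4 CPM on BW25113 and at 17.5, 53.2 and 39.3 CPM on purE. Both had purE replicate 1 inside the BW25113 range in CPM, and log2 fold changes of 0.81 ± 0.36 and 1.04 ± 0.40. In deposited FPKM purE replicate 1 exceeded all BW25113 libraries in both, at 95.6 and 34.1 against at most 90.1 and 33.3. flp-5 stood at 11.5, 8.35 and 7.82 CPM on BW25113 and at 8.23, 30.9 and 16.1 CPM on purE. flp-15 stood at 8.50, 8.16 and 5.49 CPM on BW25113 and at 7.87, 24.9 and 12.5 CPM on purE. In these genes, with log2 fold changes of 1.00 ± 0.46 and 1.03 ± 0.44, purE replicate 2 stood furthest out, at 3.35 and 3.37 times the BW25113 mean. flp-9 stood at 10.6, 8.12 and 8.54 CPM on BW25113 and at 10.8, 33.4 and 15.03 CPM on purE, a log2 fold change of 1.12 ± 0.43 with groups that barely failed to overlap.

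The smallest log2 fold change belonged to flp-25, at 2.10, 1.94 and 1.83 CPM on BW25113 and 2.17, 3.43 and 2.41 CPM on purE. Its groups did not overlap in CPM although its value was only 0.44 ± 0.37. In deposited FPKM they overlapped, with purE replicate 3 at 3.43 inside the BW25113 range of 3.18 to 3.60. The 16 tested members without values for every library here were flp-2, flp-4, flp-6, flp-8, flp-10, flp-16, flp-18, flp-19, flp-20, flp-21, flp-22, flp-26, flp-27, flp-32, flp-33 and flp-34. Their means ran from 0.773 to 9.81 CPM on BW25113 and from 1.25 to 15.3 CPM on purE. Their log2 fold changes ran from 0.45 for flp-33 to 1.17 for flp-8, with edgeR adjusted p-values of 0.293 to 0.547.

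The counts above changed when single libraries were left out. A fit with a library left out also has less power. The 11 members with an unadjusted p under 0.05 became 2, 1 and 2 without BW25113 replicates 1, 2 and 3, and 21, 1 and 4 without purE replicates 1, 2 and 3. The shares of all genes in those fits were 9.66%, 7.24% and 10.7%, and 18.5%, 7.07% and 9.2%. The 8 members without overlap became 15 without BW25113 replicate 1, against 19.4% of all genes, and 27 without purE replicate 1, against 30.4%. Leaving out a library can only keep or raise the count of members without overlap. Without purE replicate 1, edgeR called 7 members as higher at an adjusted p under 0.05, with 11% of 12811 genes called as higher in the same fit. These were flp-1, flp-5, flp-8, flp-9, flp-13, flp-14 and flp-24. Without BW25113 replicates 1, 2 and 3 the median log2 fold change of the family was 0.99, 0.77 and 0.72, against 0.88 with all libraries. It was 1.04 and 0.98 without purE replicates 1 and 3. Without purE replicate 2 the median log2 fold change of the family was 0.46, with a range of 0.03 for flp-22 to 0.91 for flp-1. All 30 tested members kept a positive log2 fold change without any single library.

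**Figure D3:**
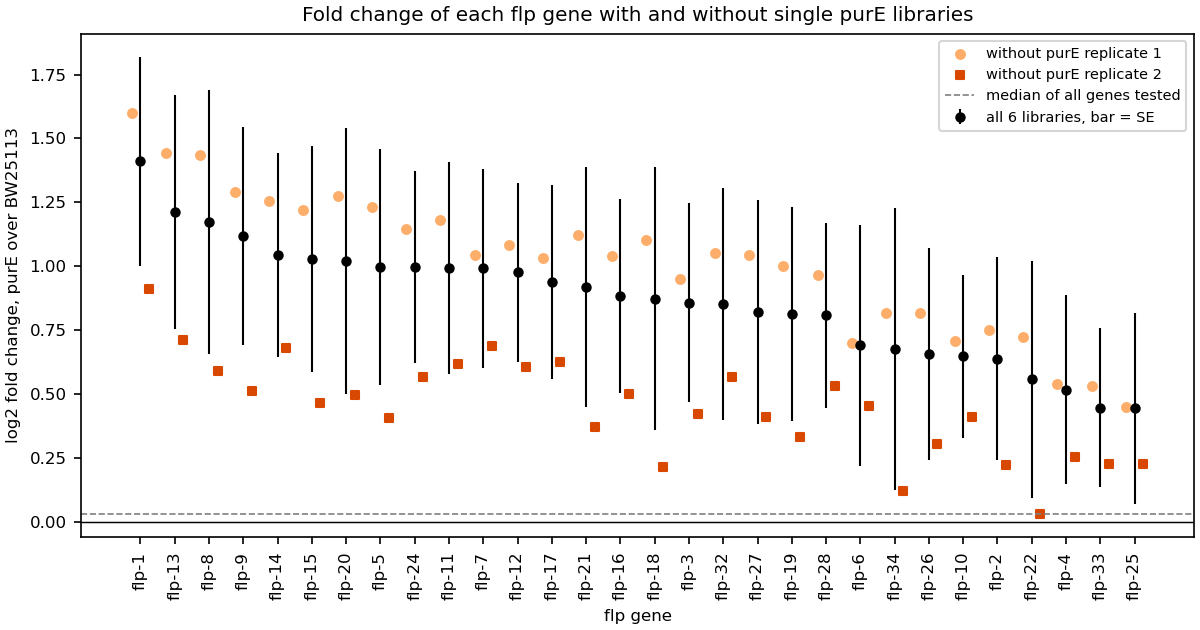
Log2 fold change of purE over BW25113 for the 30 flp genes tested, in black with SE bars for all 6 libraries, and as coloured points without purE replicate 1 or 2. The dashed line marks the median of all genes tested, 0.03, and all points lie above 0, with the points without purE replicate 2 lowest.

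By place in the genome, 13 of the 31 genes, or 41.9%, lie on the X chromosome, which holds 13.9% of the 18153 genes placed by the annotation. Autosomes I, II, III, IV and V hold 2, 3, 5, 5 and 3 members. The median log2 fold change was 0.87 for the 13 X-linked members and 0.89 for the 17 tested autosomal ones, and their median levels were 14.7 and 14.9 FPKM. The genes flp-28, flp-3 and flp-2 lie together on the reverse strand of the X chromosome (WBcel235, from 10087314 to 10095245), with gaps of 3979 and 1465 bases. Despite this closeness they differed in level, with means of 104.3, 8.91 and 14.7 FPKM. Annotated exon lengths of the family ran from 422 to 1013 bases with a median of 643.

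Of the genes that mature the peptides, 2, 8 and 3 of 11 exceeded all BW25113 libraries in purE replicates 1, 2 and 3, against 24.7%, 41.8% and 34.6% of all genes. Of the same 11 genes of precursor processing tested, 8 were positive in log2 fold change and the median was 0.39. Of them, 1 had an unadjusted p under 0.05 as higher and 0 as lower, against 12.7% and 3.81% of all genes. That median ranged from 0.04 to 0.45 with single libraries left out, and was lowest without purE replicate 2. The gene was sbt-1, a chaperone of the prohormone convertase EGL-3, at 20.9, 21.3 and 27.4 CPM on BW25113 and 31.3, 69.7 and 41.1 CPM on purE. All its purE libraries lay above the BW25113 libraries, and its log2 fold change was 1.03 ± 0.33, at an edgeR adjusted p of 0.167. The amidating enzyme gene pghm-1 had 0.69 ± 0.36. Further enzymes, chosen after their values were seen, were the carboxypeptidase gene egl-21 with 0.56 ± 0.30 and egl-3 itself with 0.41 ± 0.32. The 3 negative members were pamn-1 with -0.27 ± 0.42, cpd-1 with -0.24 ± 0.38 and cpd-2 with -0.16 ± 0.31. Both egl-21 and egl-3 were highest in purE replicate 2, at 112 and 96.9 CPM against BW25113 ranges of 45.0 to 60.2 and 41.0 to 56.2 CPM.

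Genes of dense core vesicle formation, transport and release were split, with 5 of 11 positive and a median of -0.06. Of these genes, 0 had an unadjusted p under 0.05, against 12.7% of all genes as higher and 3.81% as lower. Those of smallest p were hid-1, which acts in vesicle maturation, with -0.48 ± 0.28, and ida-1, a vesicle membrane protein, with 0.52 ± 0.34. The sign of this median depended on the processing, being positive at 0.062 with a minimum of 1 CPM in 3 libraries and at 0.15 without BW25113 replicate 3.

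Receptors for these peptides were scarce in the same libraries. Of 45 receptor genes listed, 42 were in the tables and 16 passed the filter, and the summed level of the 42 was 24.3 to 30.4 CPM on BW25113 and 31.4 to 35.6 CPM on purE. Of the 16 tested, 11 were positive in log2 fold change and the median was 0.36. An unadjusted p under 0.05 was found for 1, as higher, against 12.7% of all genes as higher. With limma on FPKM, where 6 receptors were tested, the median was slightly negative, at -0.027 with a pseudocount of 1 and -0.045 with 0.1. The 1 gene was npr-5, a receptor of the flp-18 peptides, at 3.18, 2.86 and 3.97 CPM on BW25113 and 6.21, 6.23 and 5.35 CPM on purE, and its log2 fold change was 0.83 ± 0.33, at an edgeR adjusted p of 0.25. The level of npr-5 in purE replicate 1 was close to that in purE replicate 2. dmsr-2, named for a myosuppressin receptor, had 0.82 ± 0.41. Receptors whose ligands are described above were chosen after their values were seen. npr-4, a further flp-18 receptor, had -0.46 ± 0.45, egl-6 had -0.46 ± 0.52, and dmsr-1, a receptor of the flp-13 peptides, had 0.63 ± 0.38. npr-1 and npr-22 failed the filter, and npr-1 stayed between 0 and 0.153 CPM, near the level of 3 counts.

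General neuronal genes had a median near 0. Of 15 genes used by nearly all neurons, some of which are also used elsewhere, 7 were positive and 8 negative, with a median of -0.03. That median was 0.013 with a minimum of 1 CPM in 3 libraries and 0.015 without purE replicate 1. It was -0.17 by library size alone. With limma on FPKM, where 10 of the genes were tested, it was -0.22 with a pseudocount of 1 and -0.24 with 0.1. In the main fit 0 had an unadjusted p under 0.05 as higher and 1 as lower, against 12.7% and 3.81% of all genes. The gene syd-2, a scaffold of presynaptic sites, was that 1, with -1.004 ± 0.37. rab-3, a synaptic vesicle protein, stood at 3.58, 3.18 and 3.13 CPM on BW25113 and at 4.56, 7.34 and 4.81 CPM on purE, a log2 fold change of 0.75 ± 0.35. unc-119, a common marker of neurons, went the other way, at 16.1, 12.4 and 11.4 CPM on BW25113 and 11.4, 8.50 and 9.79 CPM on purE, with -0.43 ± 0.28. The summed level of the list was 315 to 353 CPM on BW25113 and 294 to 351 CPM on purE. Whether the flp genes differ from these lists was not tested.

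Of 10 tested genes for small neurotransmitters, 8 were positive, with a median of 0.58, and 1 had an unadjusted p under 0.05, as higher. The shares of all genes tested were 51.6% positive and 12.7% higher at such a p. The median of this list was 0.21 without purE replicate 2 and 0.39 without BW25113 replicate 2. With limma on log2(FPKM + 1), where 5 of the genes were tested, it was 0.27. The 1 gene with such a p was bas-1, a decarboxylase of serotonin and dopamine synthesis. It stood at 7.92, 7.93 and 7.82 CPM on BW25113 and 13.2, 19.1 and 14.9 CPM on purE. Its log2 fold change was 0.99 ± 0.27 at an edgeR adjusted p of 0.131, while DESeq2 gave 0.04225. cho-1, a choline transporter gene, had 0.82 ± 0.44. All neuronal lists and those of other tissues were chosen with earlier results of these data known.

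Markers of other tissues also differed in the same purE libraries. Summed cuticle and moult genes, 15 in the tables and 14 tested, stood at 541 to 1406 CPM on BW25113 and at 299.9, 16360 and 4147 CPM in purE replicates 1, 2 and 3, and 12 of 14 were positive with a median of 2.45. That median was 0.68 without purE replicate 2, 1.16 in limma-voom and 0.39 with limma on FPKM, where 12 of the genes were tested. Summed sperm markers, 17 in the tables and 15 tested, stood at 362 to 647 CPM on BW25113 and at 778, 6626 and 3444 CPM on purE, and 15 of 15 were positive with a median of 3.05. Oocyte and embryo markers stood at 4705 to 6401 CPM on BW25113 and at 4737, 2852 and 4807 CPM on purE, and 0 of 13 were positive, with a median of -0.48. In BW25113 replicate 1 the collagen gene col-10 and the sperm gene spe-38 were at 0 counts, and no other marker of these 3 lists was at 0 in any library. Smaller positive medians were found for body wall muscle (0.48, 11 of 12 positive), pharynx (0.71, 4 of 5) and intestine (0.39, 7 of 9). Without purE replicate 2 the medians were 2.37 for sperm, -0.245 for oocytes and embryos, 0.33 for body wall muscle, 0.50 for pharynx and 0.24 for intestine. The part of these tissues in the flp values was not tested.

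The named cuticle and sperm genes had larger fold changes than any flp gene. bli-2 and bli-6, collagens of the cuticle, had log2 fold changes of 5.68 ± 1.43 and 4.01 ± 1.05, and the sperm genes msp-3 and ssq-1 had 3.06 ± 0.67 and 3.03 ± 0.67. In purE replicate 1 bli-2 and bli-6 lay inside their BW25113 ranges, at 1.47 and 71.2 CPM. There msp-3 and ssq-1 lay above theirs, at 25.4 and 29.55 CPM. oma-1 and puf-5 of oocytes had -0.62 ± 0.28 and -0.76 ± 0.35. In muscle unc-54, a myosin, had 0.66 ± 0.32 and dim-1 had 0.53 ± 0.29, in the pharynx tnc-2 and tni-4 of the troponin complex had 0.99 ± 0.35 and 0.84 ± 0.31, and in the intestine ifb-2 and act-5 had 1.29 ± 0.39 and 0.91 ± 0.35. The smallest edgeR adjusted p among these 12 genes was 0.129. DESeq2 called 13 of 15 sperm markers and 7 of 14 cuticle and moult genes as higher, among them bli-2, bli-6, msp-3 and ssq-1, and 0 in the oocyte, muscle, pharynx and intestine lists. It called 6.26% of all genes as higher.

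**Figure D4:**
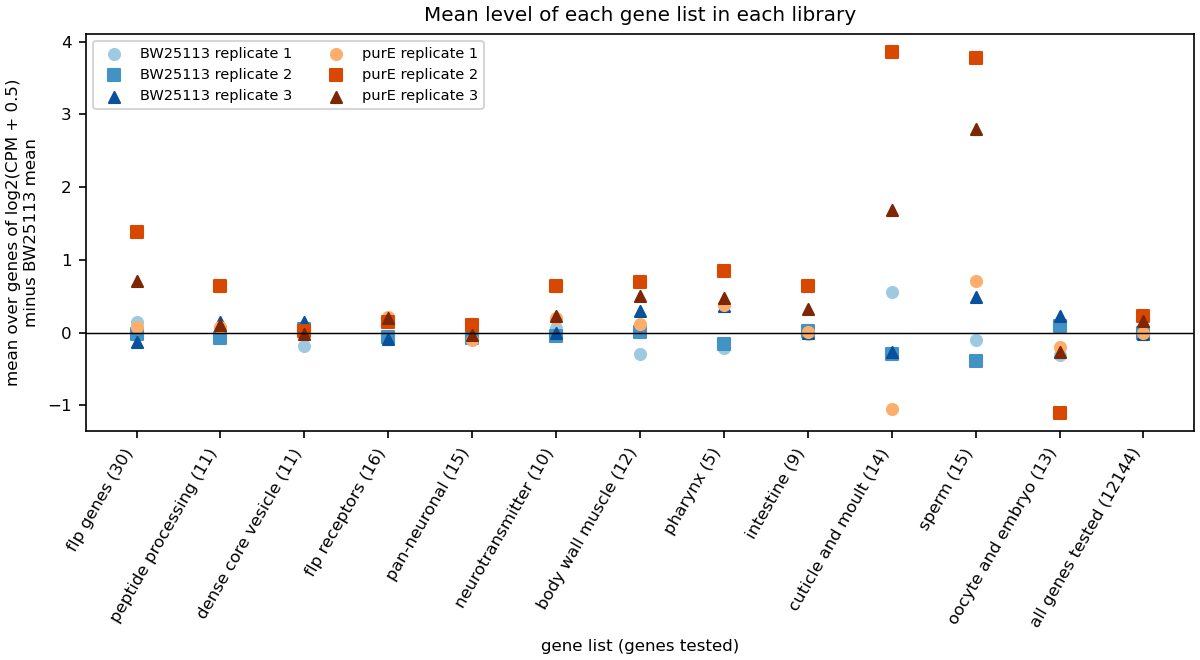
Mean over the tested genes of each list of log2(CPM + 0.5) minus the BW25113 mean, with 1 point per library and the number of tested genes in brackets. The flp genes stand at 0.07, 1.38 and 0.71 in purE replicates 1, 2 and 3, the pan-neuronal genes within -0.10 to 0.11 in the purE libraries, and the cuticle and sperm lists reach 3.86 and 3.77 in purE replicate 2.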

How the data were processed

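Whole-body RNA of adult Caenorhabditis elegans was sequenced in 6 libraries, and groups and replicate numbers came from the sample titles. The deposited tables hold estimated counts of each gene, called read counts in the file headers, of which 91.0% to 92.2% in a library were exactly whole. They also hold FPKM, which per the file headers the authors had scaled for length and library size. Per the submitters' processing notes the reads were placed on WBcel235. For the aligner, counting tool and strand setting nothing is stated in the sources used here, and reads of antisense genes cannot be told apart. Coordinates and exons came from an Ensembl annotation of that build, matched by symbol for all 31 members.

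Counts were rounded, filtered with edgeR's default filter (12144 genes), scaled with TMM and compared between diets by the quasi-likelihood test of edgeR 4.0.16 under R 4.3.3. The test was two-sided, p-values were adjusted by Benjamini-Hochberg over the whole table, and the threshold was 0.05. Genes past it are referred to as called. Each SE was derived from the log2 fold change and the F value. DESeq2 1.42.0, limma 3.58.1 (voom, and log2 of FPKM with a pseudocount) and further settings were alternatives. The code was tested on simulated data. The planted changes exceeded those of every tested flp gene, so the power for flp changes was not measured. Between libraries of a diet the chi-square per degree of freedom was 45.4 to 395, beyond counting error. Values in every library are given for the 8 members of highest mean FPKM, the 5 of smallest p in each direction and those whose groups did not overlap, and for other lists the 2 genes of smallest p and the markers rab-3 and unc-119 are named. The members and lists were chosen with earlier results of these data known.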

Additional observations from a re-analysis of the deposited data

How the results depend on the processing

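All tested members kept a positive log2 fold change under every alternative run. The count of 11 members at an unadjusted p under 0.05 was 5 with scaling by library size alone (9.99% of all genes), 7 without the 100 most abundant genes (10.9%), 4 in limma-voom (8.98%), and 6 with limma on log2(FPKM + 1) or on log2(FPKM + 0.1) (8.94% and 8.84%). With single libraries left out it ranged from 1 to 21, and the count of called members, 0 with all libraries and 1 in DESeq2, ranged from 0 to 7. The family median ranged from 0.46 to 1.04 without single libraries. With the replicate number as a block, 3 members had an unadjusted p under 0.05 (8.98% of all genes), and 0 were called. The deviations of same-numbered libraries correlated at -0.137, -0.17 and 0.136, so the numbers were not taken to pair the libraries. The count of 8 members with all purE libraries above all BW25113 libraries was 14 by library size alone or in deposited FPKM (11.8% of all genes in each) and 5 with upper quartile scaling (12.9%), and 8 to 27 without single libraries (14.4% to 30.4%), alternatives chosen after seeing the data. Leaving out a library can only keep or raise that count. The FPKM alternatives moved the median of all genes from 0.03 to -0.11 and -0.13. The median of the receptor list was -0.0270 and -0.0451 in them, over 6 genes. That of the dense core vesicle list was 0.0624 with at least 1 CPM in 3 libraries, 0.0439 in limma-voom and 0.0235 with the replicate block, and with single libraries left out it lay between -0.18 (purE replicate 1) and 0.15 (BW25113 replicate 3). Of 42 receptors, 16 passed the filter on low counts, which limits what that list can show. The causes were not tested.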
